A study of Mus musculus with 19 samples.

Results

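Skeletal muscle genes were followed through 19 mouse mammary tumours, 1 tumour per array. The set held 38 genes of the sarcomere, calcium release and energy metabolism of muscle, chosen by symbol, of which 37 had spots on the array. Smpx had none and is not used here. The 37 genes had 78 spots, 77 of them measured on enough arrays to be used, out of 33653 spots that name 1 gene and 18553 genes in all. Each value is the log2 ratio of tumour RNA over a whole-mouse reference RNA, averaged over the spots of a gene. A ratio of 0 therefore means the same signal as in the reference, a ratio of -1 a signal 1 doubling below it. The direction of the ratio is likely rather than stated, and with the ratio turned every sign, every order of tumours and every higher or lower below would turn too.

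All 19 tumours were mammary adenocarcinomas of FVB mice with a transgene in which the C3(1) promoter of the rat drives the T antigen of simian virus 40 in mammary epithelium. The untreated group had 7 tumours, here U1 to U7. Mice of the other groups received carbo/taxol, carboplatin and paclitaxel, for 2 or 3 weeks. Non-responders numbered 9, N1 to N9, with 4 tumours at 2 weeks and 5 at 3 weeks. Responders numbered 3, with R1 at 2 weeks and R2 and R3 at 3 weeks. The sources used here do not give how response was judged, the age of the mice or the place a tumour was cut from. N1 and R3 carry the same animal number, so a non-responder and a responder came from what the labels call 1 mouse. The titles of U1, U2, N1, N2 and all 3 responders are spelled with a hyphen after Tag and the other 12 are not, and responders occur only among these 7 hyphen titles. The number of tumours limits the precision of every difference below.

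Skeletal muscle fibres come in fast and slow types that use different genes for the same parts. Myosin heavy chains pull on actin filaments, the troponin complex switches them on when calcium binds, and myosin-binding protein C and the actinins hold the filaments in register. Calcium leaves the sarcoplasmic reticulum through a release channel and is pumped back by a calcium ATPase, while creatine kinase, glycogen phosphorylase and myoglobin serve the energy supply. The mammary fat pads of the mouse lie next to skin muscle and the body wall. In RNA of a whole piece, fewer muscle cells and less RNA per muscle cell cannot be told apart.

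The muscle genes were far below the whole-mouse reference in nearly every tumour. Averaged over spots, 35 of the 37 lay below 0 in all 19 tumours, and only Myh4 and Pvalb lay above 0 anywhere, both in R1, R2 and N2. In N2 the Myh4 spots read -1.6 and 1.7. The median gene had a mean log2 ratio of -3.40 over the tumours, and 33 of 37 lay below -2.35, the level that marks the lowest 5% of all genes. Genes this far below the reference may be near the array's floor, where a ratio is only a bound, and signal over background is not analysed here. The epithelial marker list, in contrast, had medians of 1.14 to 2.06 in the 19 tumours. The muscle genes also spread more between tumours of a group than most genes. Their median SD within groups was 0.758, beside 0.502 over all genes, and 33 of 37 exceeded the latter. Myh4 and Pvalb were the 2 members with an SD above 1.21, the 95th percentile of all genes.

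**Figure D1:**
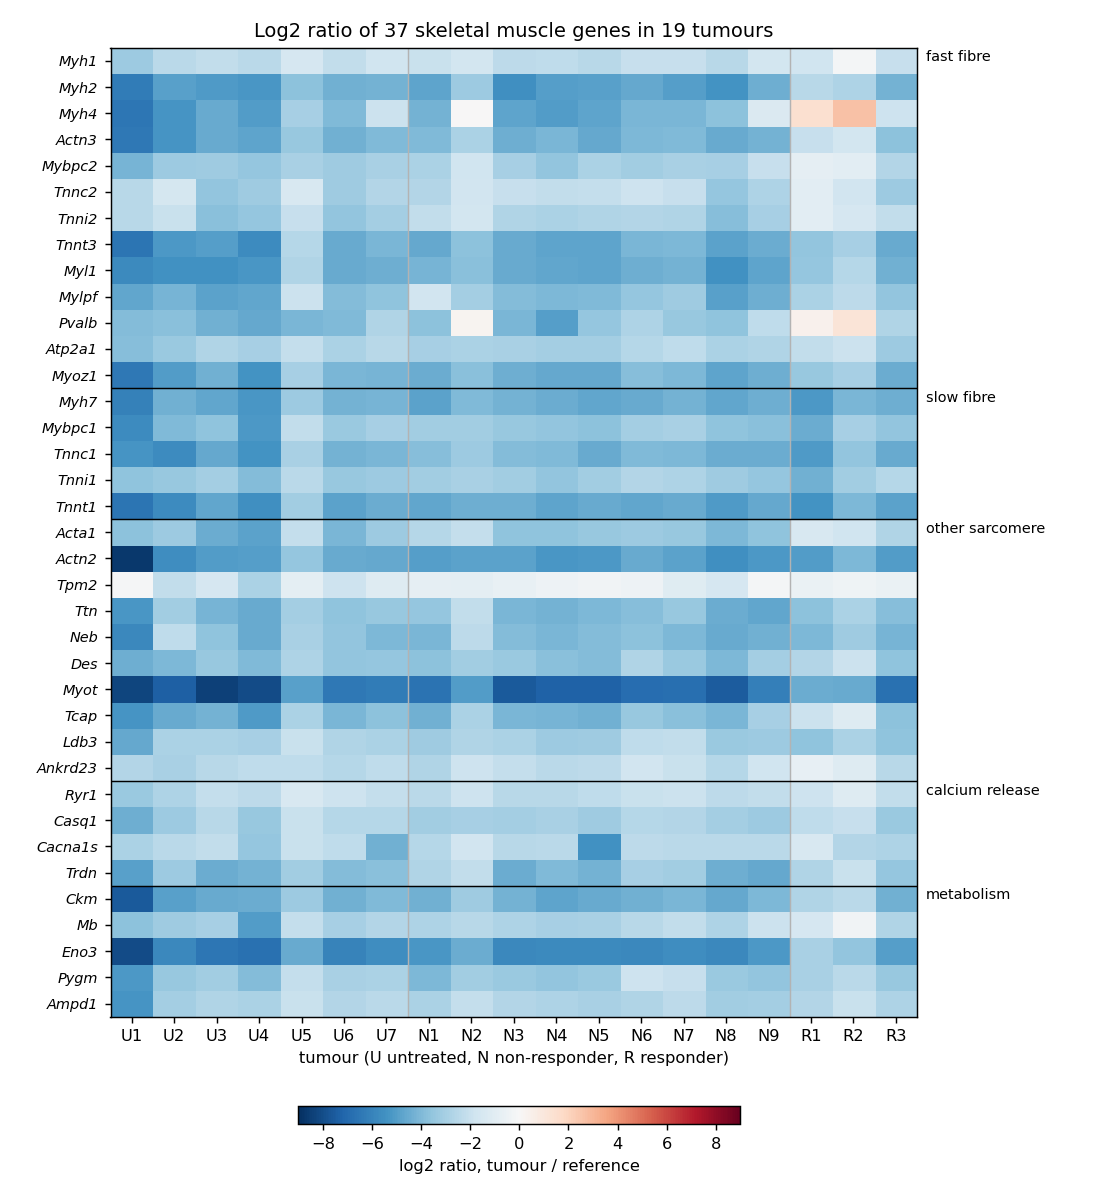
Log2 ratio of tumour over reference for 37 muscle genes (rows, by role) in 19 tumours (columns, by group), with blue below and red above the reference. The red cells are Myh4 and Pvalb in R1 and R2, N2 is near 0 for both, and U1 is the darkest column.

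The fast myosin heavy chain Myh4, which drives the fastest and strongest fibres, and parvalbumin (Pvalb), the calcium buffer of fast fibres, stood out, and their promoters are shown beside that of the slow heavy chain Myh7. Each stretch is 300 bases, 250 before to 50 after the first base of the transcript, from RefSeq on build GRCm38.p6, 5′ to 3′ on the gene's strand. Capitals mark matches, on either strand, to an E-box (CANNTG), a TATA box (TATAAA), the MEF2 motif or the CArG motif. Myh4 lies at chr11:67237562-67237861 on the plus strand. Pvalb is at chr15:78206351-78206650 on the minus strand, and Myh7 is at chr14:54994577-54994876 on the minus strand, each the first of 2 listed starts.
Myh4: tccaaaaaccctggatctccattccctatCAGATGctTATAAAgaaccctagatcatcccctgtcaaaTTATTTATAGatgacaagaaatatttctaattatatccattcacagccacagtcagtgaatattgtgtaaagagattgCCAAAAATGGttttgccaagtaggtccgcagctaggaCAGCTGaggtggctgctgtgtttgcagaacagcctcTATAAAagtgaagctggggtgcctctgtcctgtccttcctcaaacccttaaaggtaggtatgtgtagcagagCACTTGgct
Pvalb: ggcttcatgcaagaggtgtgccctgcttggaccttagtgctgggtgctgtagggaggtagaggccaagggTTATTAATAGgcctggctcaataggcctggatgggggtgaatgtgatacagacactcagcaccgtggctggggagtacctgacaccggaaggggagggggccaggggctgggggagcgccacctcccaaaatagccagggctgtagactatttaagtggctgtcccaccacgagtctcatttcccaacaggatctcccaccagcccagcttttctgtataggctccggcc
Myh7: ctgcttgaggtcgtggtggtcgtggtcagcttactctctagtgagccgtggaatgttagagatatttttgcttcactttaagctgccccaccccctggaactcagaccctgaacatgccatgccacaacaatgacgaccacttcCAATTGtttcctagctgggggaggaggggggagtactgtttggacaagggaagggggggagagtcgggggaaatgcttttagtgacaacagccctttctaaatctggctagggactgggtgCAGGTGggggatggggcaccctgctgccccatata
The Myh4 stretch held 3 E-boxes, 3 TATA boxes, 1 MEF2 match and 1 CArG match, with the MEF2 match at base -182 overlapping the TATA box at -179, read on the other strand. Pvalb held 1 MEF2 match, at -180, and Myh7 held 2 E-boxes. Among the 29 members found in the promoter table, each taken at its first listed start, 22 held an E-box. Over all 32851 promoters, in which every listed start of a gene counts, the share was 72.3%. A TATA box was found in 6 of the 29, against 13.6% of all. The MEF2 motif was found in 4 of the 29 (Ttn, Myh1, Myh4 and Pvalb), against 3.19% of all, and the CArG motif in 3 (Acta1, Myh4 and Ldb3), against 1.63%. These matches describe letters in a window and not bound sites.

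Myh4 had the widest range of all the members. Its log2 ratio was 1.41 in R1, 2.65 in R2 and -1.87 in R3. Untreated tumours ran from -6.48 in U1 over a median of -4.55 to -1.93 in U7. Non-responders ran from -5.04 in N4 over a median of -4.13 to 0.04 in N2, with N9 next at -1.33. Averaged over spots, all 3 responders lay above every untreated tumour, R3 only just, and R3 was below N2 and N9. On 1 of the 2 Myh4 spots U7, at -0.33, lay above R3, at -1.07. The responder minus untreated difference was 5.06 ± 1.10 (SE, 3 against 7 tumours), a 33.5-fold higher mean ratio, with an adjusted p of 0.0534 in limma. Its pair of spots differed in size: in R1 they read -0.47 and 3.29, and in N9 -3.05 and 0.39, while in U1 they read -6.35 and -6.62. Myh1, Myh2 and Myh4 are close paralogues, and whether each spot reads only 1 of them was not tested.

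Pvalb, with 1 spot, followed the same order of tumours at the top. Responders R1, R2 and R3 had ratios of 0.41, 1.17 and -2.70. The untreated tumours lay between -4.63 in U4 and -2.69 in U7, with a median of -3.97. In non-responders the ratio went from -4.98 in N4 over -3.48 to 0.21 in N2. R1 and R2 were above all 16 tumours of the other groups, while R3 lay at the level of U7. The difference between responders and untreated tumours was 3.54 ± 0.84 (adjusted p = 0.0691, limma).

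The other heavy chains of fast fibres, Myh2 (type IIa) and Myh1 (type IIx), were also at their highest in responders. Myh2 was at -2.52, -2.80 and -4.23 in R1 to R3, beside untreated values from -6.33 to -3.67 and non-responder values from -5.55 to -3.26. Every other tumour lay below R1 and R2 for Myh2. Myh1 was at -0.18 in R2, and between -3.27 and -1.48 in all the other tumours. The spots of Myh1 disagreed, since 1 of them stayed between -0.99 and 0.58 in all 19 tumours while the other ran from -5.56 to -0.95. The light chains Myl1 (essential) and Mylpf (regulatory) shift with the heads of fast myosin. Myl1 exceeded the untreated mean by 1.32 ± 0.51 in responders (adjusted p = 0.198) and Mylpf by 1.08 ± 0.59 (adjusted p = 0.377). The highest Mylpf value was not in a responder but in N1, at -1.71.

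The troponins of fast fibres form the calcium switch of the thin filament. Tnnc2, the calcium-binding subunit, read -0.98, -1.73 and -3.29 in R1 to R3. It ran from -3.55 over -2.61 to -1.43 in untreated tumours, and from -3.47 over -2.17 to -1.75 in non-responders. R1 was the highest tumour and R3 was among the lower ones, so the groups overlapped widely (0.58 ± 0.49, adjusted p = 0.607). The difference was 0.07 without R1 and 1.23 without R3. Tnni2, the inhibitory subunit, read -0.95 in R1, -1.52 in R2 and -2.23 in R3. The untreated range was -3.73 over -3.05 to -2.02, and that of non-responders -3.82 over -2.68 to -1.63. R1 and R2 were above all other tumours, and the difference from untreated was 1.35 ± 0.42 (adjusted p = 0.119). Tnnt3, the tropomyosin-binding subunit, was at -3.58, -2.97 and -4.54 in R1 to R3. U5 held its highest value, -2.55, in an untreated group that reached down to -6.57 with a median of -4.95. In non-responders it ran from -4.84 over -4.54 to -3.69, so that the groups overlapped.

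Mybpc2, the fast myosin-binding protein C, was closest to the reference in R1 and R2. R1 was at -0.79, R2 at -0.98 and R3 at -2.63. Untreated tumours had -4.16 over -3.21 to -2.88, and non-responders -3.56 over -2.93 to -1.82. All 3 responders were above every untreated tumour, and R1 and R2 above every non-responder. The responder minus untreated difference was 1.84 ± 0.39 (adjusted p = 0.0534). Actn3, the actinin of fast-fibre Z-discs, read -2.05, -1.68 and -3.69 in R1 to R3. Untreated values went from -6.46 over -4.52 to -3.43 in U5, and non-responder values from -4.63 over -4.14 to -2.83 in N2. R1 and R2 lay above all other tumours and R3 within both other groups (2.21 ± 0.52, adjusted p = 0.0672).

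Atp2a1, the calcium pump of fast fibres, varied little. Responders had -2.21, -1.90 and -3.30, untreated tumours -3.83 over -2.85 to -2.15, and non-responders -3.09 over -2.86 to -2.26. The groups overlapped, with a difference of 0.43 ± 0.32 (adjusted p = 0.55; 0.14 without R2 and 0.84 without R3). Myoz1, a Z-disc protein that binds calcineurin in fast fibres, was highest in U5 at -2.98, with R2 next.

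None of the 5 slow-fibre genes was highest in a responder. Each of them was highest in the untreated tumour U5, and R1 had the lowest value among responders for all 5. Myh7, the slow heavy chain, was at -5.16, -4.12 and -4.43 in R1 to R3, with untreated tumours from -6.11 over -4.33 to -3.30 and non-responders from -4.82 over -4.50 to -3.99. Its responder minus untreated difference was 0.01 ± 0.40. Tnnc1, the slow and cardiac calcium-binding troponin, was at -5.09, -3.54 and -4.54, beside -5.66 over -4.62 to -2.93 in untreated and -4.55 over -3.98 to -3.29 in non-responding tumours. R1 was thus below every non-responder for both genes, and the groups overlapped.

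Tnni1, the slow inhibitory subunit, had another order of responders. R1 had the lowest value of all 19 tumours, -4.30, while R2 had -3.12 and R3 -2.59. Untreated tumours ran from -3.89 over -3.43 to -2.41 and non-responders from -3.56 over -3.10 to -2.67. Tnnt1, the slow tropomyosin-binding subunit, read -5.37, -4.08 and -4.80 in R1 to R3, against -6.55 over -4.80 to -3.15 in untreated and -5.11 over -4.58 to -4.36 in non-responding tumours. Mybpc1, the slow myosin-binding protein C, read -4.43, -2.99 and -3.52, against -5.66 over -3.59 to -2.23 and -3.76 over -3.39 to -2.90. The 5 responder minus untreated differences lay between -0.04 and 0.23, each smaller than its standard error. Within the hyphen titles, with only U1 and U2 as untreated tumours, they were 1.36 for Tnnt1, 1.17 for Mybpc1, 1.11 for Tnnc1, 0.65 for Myh7 and 0.19 for Tnni1.

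**Figure D2:**
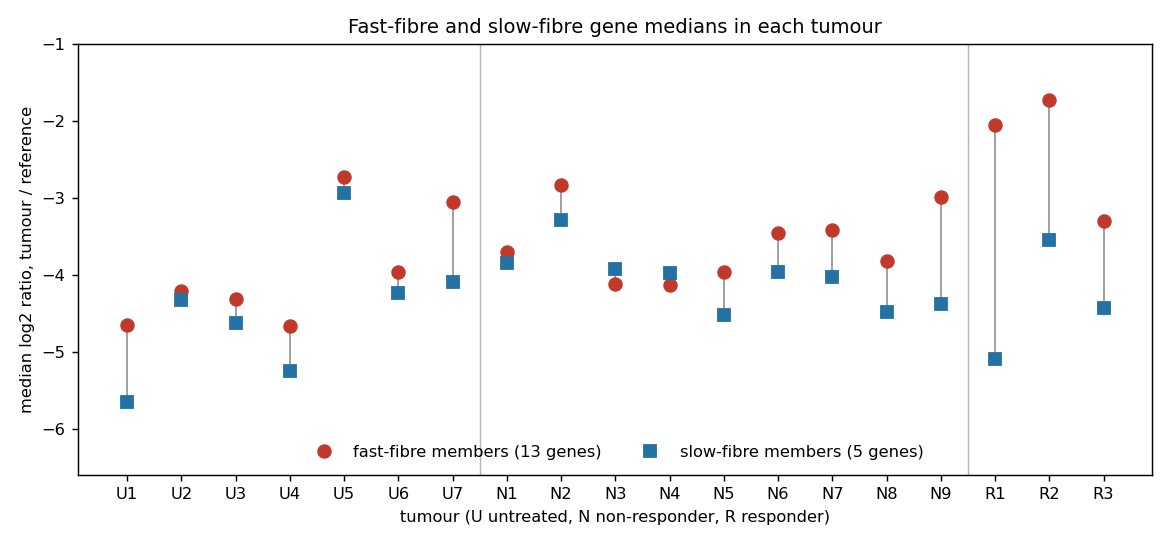
Median log2 ratio of 13 fast-fibre genes (circles) and 5 slow-fibre genes (squares) in each tumour, with a line joining the pair. The circle is highest in R2 (-1.73) and R1 (-2.05), while the square of R1 (-5.09) is among the lowest.

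Fast-fibre and slow-fibre genes parted most in R1. The median fast-fibre ratio there was -2.05 and the median slow-fibre ratio -5.09, a gap of 3.05. The gap was 1.81 in R2, 1.39 in N9 and 1.13 in R3, and it was 1.04 or less in the other 15 tumours. U5 had both medians high, -2.72 for fast and -2.93 for slow genes, and U1 had both low, -4.66 and -5.66. A gap between ratios to the reference compares the tumour with the reference's own mix of fibres, and does not say which paralogue had more RNA. Within pairs, Myh4 minus Myh7 was 6.77 in R2, 6.57 in R1, 4.04 in N2, 3.06 in N9, 2.56 in R3 and 2.24 in U7. R1 had the largest gap of all tumours for Tnni2 over Tnni1 (3.35), Tnnt3 over Tnnt1 (1.79), Mybpc2 over Mybpc1 (3.64) and Actn3 over Actn2 (3.002). For Tnnc2 over Tnnc1 the gap in R1 was 4.12, the same as in U2, and those of R2 and R3 were 1.81 and 1.26, within the range of the untreated tumours.

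**Figure D3:**
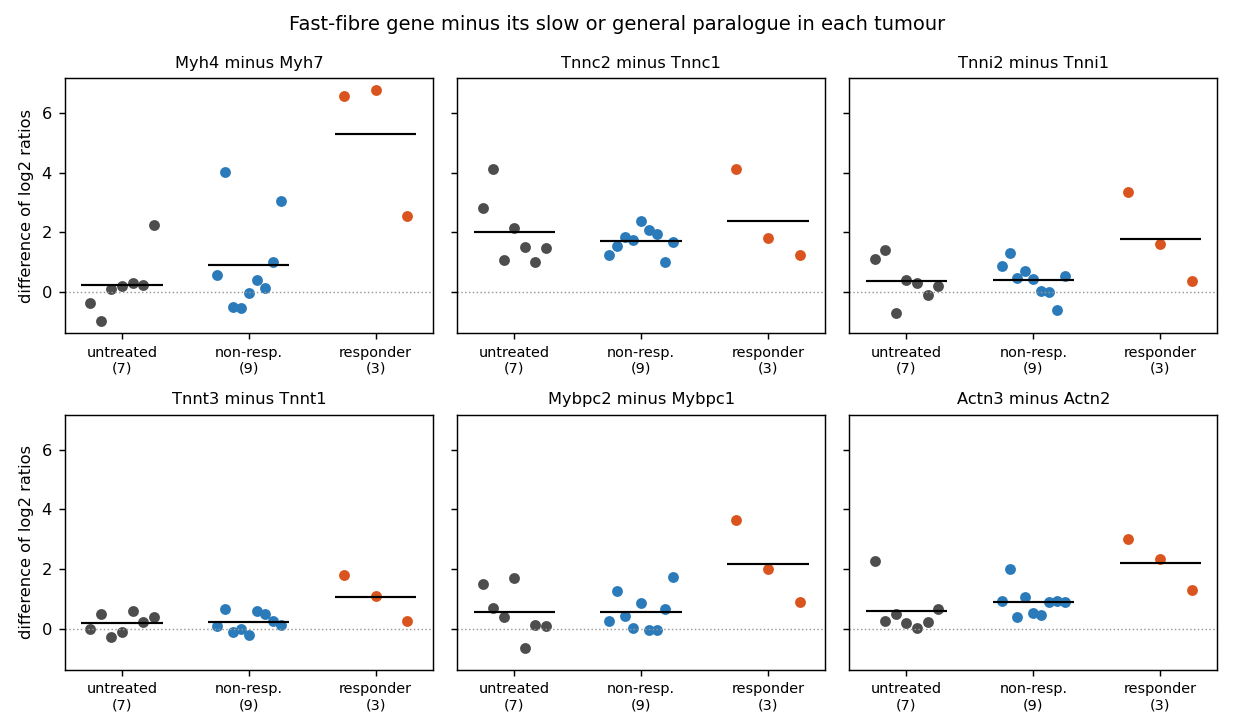
Difference of log2 ratios, for 5 pairs of a fast and a slow paralogue and for Actn3 minus Actn2, the actinin of all fibre types, with a point per tumour and a bar at the group mean (7 untreated, 9 non-responder, 3 responder tumours). Myh4 minus Myh7 reaches 6.77 and 6.57 in R2 and R1, and the responder means are highest in all 6 panels while single points overlap.

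Among the other sarcomere genes, the largest responder values were again those of R1 and R2. Acta1, the skeletal muscle actin, read -1.44, -1.83 and -2.73 in R1 to R3. It ran from -4.84 over -3.71 to -2.12 in untreated and from -4.06 over -3.43 to -2.12 in non-responding tumours. R1 and R2 were above all others and R3 within the range of both groups (1.68 ± 0.48, adjusted p = 0.0914). Actn2, the actinin of all fibre types and heart, was at -5.05, -4.02 and -5.00 in responders, beside -8.72 over -4.94 to -3.46 in untreated and -5.49 over -4.93 to -4.51 in non-responding tumours. It overlapped between groups, and R1 sat near the untreated median.

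Tcap, the cap of titin at the Z-disc, exceeded the untreated mean by 2.001 ± 0.51 in responders (adjusted p = 0.0726) and reached -1.17 in R2. Myot, a Z-disc crosslinker of actin, had the lowest mean ratio of the set, -6.66, and a difference of 1.88 ± 0.68 (adjusted p = 0.172). Ankrd23, a stress-responsive ankyrin protein bound to titin, differed by 1.05 ± 0.30 (adjusted p = 0.0935). Ldb3, a PDZ protein of the Z-disc, was the member with the lowest difference, -0.39 ± 0.40, and Neb, the ruler of the thin filament, differed by -0.01 ± 0.54. Giant titin (Ttn), which spans from Z-disc to M-line, read -3.70, -2.88 and -3.86 in R1 to R3, -5.23 over -3.63 to -3.05 in untreated and -4.71 over -4.02 to -2.25 in non-responding tumours. N2 had its highest value, and the groups overlapped. Its 9 used spots disagreed, with means over the tumours from -5.47 to -0.38. Des, the intermediate filament desmin of all muscle, was at -2.60, -1.92 and -3.60 in R1 to R3, -4.36 over -3.53 to -2.76 in untreated and -4.06 over -3.31 to -2.73 in non-responding tumours. Its top tumours were R2 and R1, and R3 was below the untreated median (0.94 ± 0.36, adjusted p = 0.197; 0.55 without R2). Its 10 spots had means from -3.49 to -3.33.

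Tpm2, the beta tropomyosin of muscle and of other contractile cells, was apart from the rest. It was closest to the reference of all members, with responders at -0.57, -0.41 and -0.62. Untreated tumours ran from -2.84 in U4 over -1.49 to -0.11 in U1, and non-responders from -1.50 over -0.65 to -0.20. The 3 responders lay close together, and U1, the lowest tumour for 25 of the 37 members, was the highest for this one. Tpm2 had the largest difference of any member between non-responders and untreated tumours, 0.81 ± 0.30 (adjusted p = 0.162). Without U1 that difference was 1.04 and its adjusted p 0.0376.

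Of the calcium release genes, Ryr1 encodes the release channel of the sarcoplasmic reticulum. It read -1.89, -1.18 and -2.21 in R1 to R3, -3.31 over -2.13 to -1.43 in untreated and -2.53 over -2.30 to -1.85 in non-responding tumours. R2 was highest, and the groups overlapped (0.53 ± 0.31, adjusted p = 0.427; 0.24 without R2). Of its 3 spots, 1 stayed between -0.34 and 1.00 in all tumours, which pulled the average towards 0. Trdn, the triadin that anchors the channel, differed by 1.22 ± 0.50 between responders and untreated tumours (adjusted p = 0.23). Casq1, a calcium store protein of fast fibres that was not counted among the 13 fast-fibre genes here, differed by 0.38 ± 0.37 and was highest in U5. Cacna1s, the voltage sensor of the transverse tubule, differed by 0.51 ± 0.60. Its lowest averages, in N5 and U7, were of tumours in which only the strongly negative spot was measured, as it was in R2 (-2.62).

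Ckm, the muscle creatine kinase, was at -2.71, -2.41 and -4.35 in R1 to R3. Untreated tumours ran from -7.57 in U1 over -4.48 to -3.29 in U5, and non-responders from -4.76 over -4.29 to -3.22 in N2. R1 and R2 were above all the others, and R3 was close to the medians of both groups (1.57 ± 0.62, adjusted p = 0.208). Mb, the oxygen store myoglobin, which is richest in oxidative fibres, was at -1.48, -0.32 and -2.69. It ran from -5.00 over -3.01 to -2.18 in untreated and from -3.01 over -2.77 to -1.95 in non-responding tumours. The top tumours were again R2 and R1, and R3 overlapped both groups (1.75 ± 0.48, adjusted p = 0.0854). Eno3, the muscle enolase of glycolysis, differed by 2.38 ± 0.54 (adjusted p = 0.0572), with a highest value of -2.90 in R1. Pygm, the muscle glycogen phosphorylase, read -2.92, -2.40 and -3.39 in R1 to R3, -5.18 over -3.14 to -2.14 in untreated and -4.03 over -3.35 to -1.90 in non-responding tumours. Its top tumours were N6 and N7, and responders lay inside the range of both groups. Ampd1, the muscle AMP deaminase, differed by 0.52 ± 0.46 between responders and untreated tumours.

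R2 was the highest of all tumours for 13 members, U5 for 10 and R1 for 9. R2 was among the top 3 tumours for 29 of 37 members, U5 for 22, R1 for 21 and N2 for 20. R3 was the lowest responder for 30 members, including all 13 fast-fibre genes, and was among the top 3 for 1. U1 was the lowest of all tumours for 25.

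Responders were compared with untreated tumours to ask whether the muscle genes differ in tumours that responded. All 13 fast-fibre and all 5 metabolic genes had a difference above 0, as did 4 of the 5 slow-fibre genes, with median differences of 1.32, 1.57 and 0.20. Across all genes 50.9% had a difference above 0, and the difference between these lists was not tested. In limma, 0 of 37 members passed an adjusted p of 0.05, where 14 of 18498 genes passed (0.0757%). At an unadjusted p under 0.05, 18 members were higher and 0 lower, which is 48.6% of the members, beside 8.95% of all genes that were higher at that level. By role these were 8 of 13 fast-fibre, 0 of 5 slow-fibre, 6 of 10 other sarcomere, 1 of 4 calcium release and 3 of 5 metabolic genes. The median difference was 0.98 over the members and 0.01 over all genes.

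The count of members past the threshold moved with the tumours and spots used. It was 5 without U1, where 393 of 18504 genes passed, and 5 without U7, where 139 of 18600 passed. Both times these were Actn3, Eno3, Mybpc2, Myh4 and Pvalb. It was 2 without N2 (20 of 18510 genes), 2 without R3 (7 of 18142) and 1 without U5 (11 of 18589). When spots missing on any array were dropped, it was 6 (366 of 14562 genes). Within the hyphen titles the median difference was 1.47, from 3 responders against U1 and U2 only, and the other titles hold no responder. In the hyphen titles Actn3 differed by 3.41, Ckm by 3.08, Tnnt3 by 2.16, Tnni2 by 0.70 and Tnnc2 by 0.04. With title style as a covariate, 0 members passed in limma (1 of 18498 genes), and the median difference was 1.04.

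**Figure D4:**
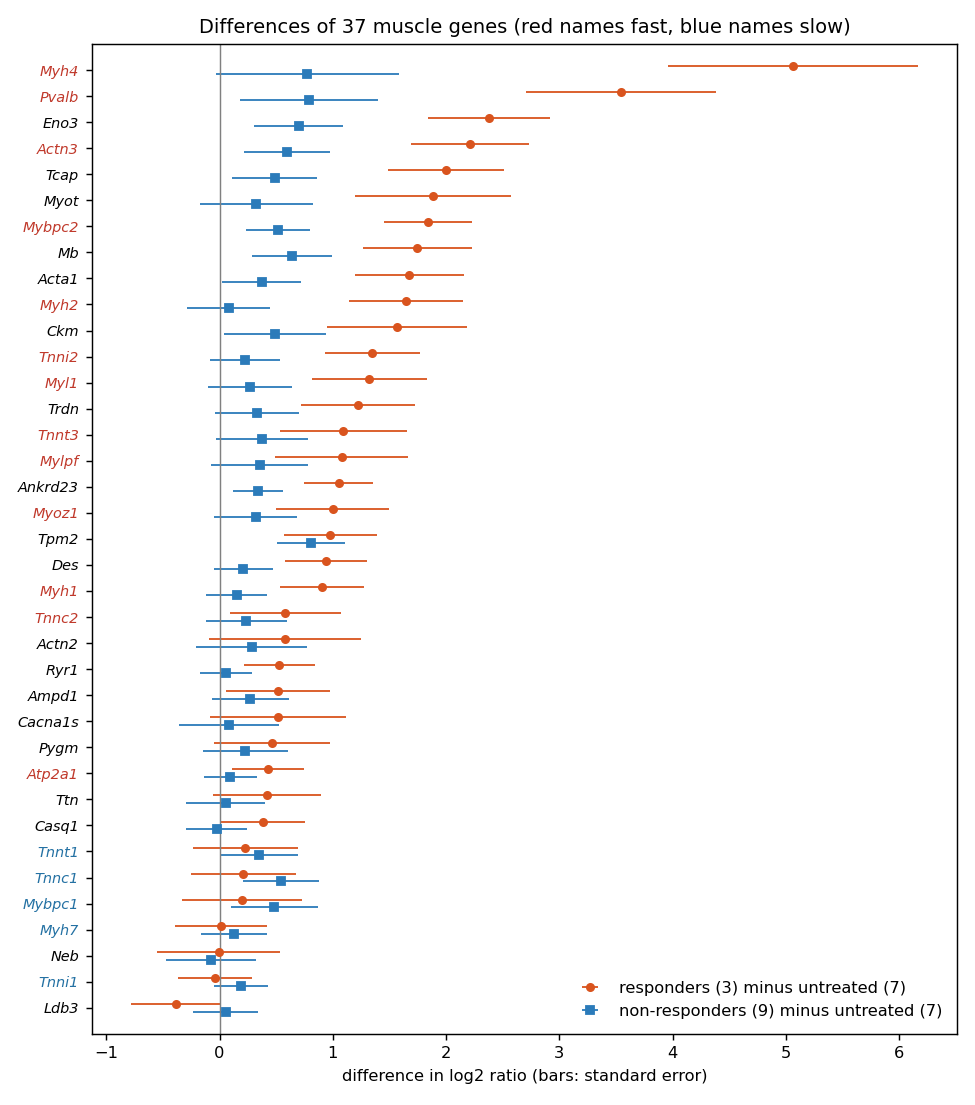
Difference in mean log2 ratio from untreated tumours for 37 genes, with circles for responders, squares for non-responders and bars for the standard error, ordered by the responder difference. Myh4 (5.06) and Pvalb (3.54) lead, and slow-fibre genes (blue names) lie near 0.

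Responders were next set directly against non-responders. The gene with the largest difference was Myh4, at 4.29 ± 1.07 (adjusted p = 0.548). The median was 0.71 over the members, 1.05 over fast-fibre genes, -0.23 over slow-fibre genes and -0.01 over all genes. Limma passed 0 members and 0 of 18498 genes (0%), with 15 members and 1170 genes at an unadjusted p under 0.05. All 15 members were higher in responders, or 40.5%, beside 2.96% of all genes, and 8 of them were fast-fibre genes. The 5 slow-fibre genes all had lower means in responders, by amounts within their standard errors. The median over members was 0.36 without R2 and 1.10 without R3, and 0.44 within the hyphen titles.

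Non-responders had mean ratios slightly above those of untreated tumours in most of these genes. No member passed in limma, while 283 of 18498 genes passed (1.53%). At an unadjusted p under 0.05, 1 member was higher (Tpm2), or 2.70% of the members, beside 10.1% of all genes. The median difference was 0.32, with 35 of 37 members (94.6%) and 53.5% of all genes above 0, and 0.32 and 0.35 over fast-fibre and slow-fibre genes. That median did not hold within the title styles: it was 1.36 in the hyphen titles, with U1 and U2 as the untreated tumours, and -0.13 in the other titles. It was 0.12 without U1, 0.20 without U4 and 0.58 without U5.

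With all 12 treated tumours together, limma passed 0 members of 37 and 678 of 18553 genes (3.65%). At an unadjusted p under 0.05, 6 members (16.2%) were higher, beside 11.6% of all genes. The member with the largest difference was Myh4, at 1.85 ± 1.01 (adjusted p = 0.319), but 5.50 within the hyphen titles and -0.27 within the other titles. Tpm2 had the lowest adjusted p, 0.084, at 0.85 ± 0.28. The median difference was 0.47, and 1.44 and -0.13 within the hyphen titles and the other titles. It was 0.27 without U1. The other titles hold no responder, so their values here repeat those of non-responders against untreated tumours. The hyphen titles set R1, R2, R3, N1 and N2 against U1 and U2 only. Title style and the make-up of the groups therefore cannot be told apart in these values. This comparison shares its untreated tumours with the others.

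Tumours at 3 weeks were compared with those at 2 weeks, over the 12 treated tumours and with response in the model. The largest difference was that of Pygm, -0.57 ± 0.34 for 3 weeks minus 2 weeks (adjusted p = 0.94). Limma passed 0 members and 0 of 18624 genes (0%), with 0 members and 825 genes at an unadjusted p under 0.05. The median over members was -0.14, beside -0.04 over all genes, and it was 0.00 without R3.

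Other muscle genes were measured outside the set. Of 20 further sarcomere genes measured, Tpm1, the alpha tropomyosin shared by many contractile cells, rose in responders by 1.66 ± 0.29 (adjusted p = 0.0452). At an unadjusted p under 0.05, 7 of the 20 were higher in responders, beside 8.95% of all genes. Tpm1 also rose in all treated tumours together, by 0.95 ± 0.25 (adjusted p = 0.0396). Of 14 further muscle metabolism genes 0 passed in responders against untreated tumours and 6 were higher at an unadjusted p under 0.05, with a median of 0.81. Of 9 further slow-muscle genes 0 passed and 1 had such a p, with a median of 0.10, and 0 of 12 excitation genes and 0 of 10 cardiac genes passed or had such a p. The cardiac median in R1 was -4.32, close to its lowest in any tumour. Of 12 genes of myogenic cells and embryonic fibres, Cdh15, the cadherin of satellite cells, rose in treated tumours by 1.33 ± 0.33 (adjusted p = 0.0329). Myod1 had the lowest difference of the list there, -0.47, and the list's median was 0.13, with 9 genes above 0. In responders against untreated tumours the list's median was -0.03, and Myod1 was again lowest, at -0.82.

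Markers of other tissues differed between the same tumours. The squamous skin list had its highest medians in R1 (-1.01) and R3 (-1.39). At an unadjusted p under 0.05, 10 of its 11 measured genes were higher in responders than in untreated tumours, beside 8.95% of all genes. The median difference of the list was 1.52, with 0 past the threshold. In R2, the tumour with the highest median over the 37 muscle members (-2.35), the squamous median was -1.98. The adipocyte list was highest in U7 (-0.58), N2 (-0.69) and R2 (-1.26), eighth of the 19 tumours in R1 (-3.28) and lowest of all in R3 (-4.30). Its median difference in responders against untreated tumours was 0.53, with 0 of 13 genes at an unadjusted p under 0.05. Smooth muscle and myoepithelial genes had medians from -1.85 to -0.51 over the tumours, and of its 13 genes Cnn1 (1.59 ± 0.43, adjusted p = 0.0417) and Krt14 (1.03 ± 0.27, adjusted p = 0.0382) rose in treated tumours. Eng, Vwf and Cldn5 of the endothelial list and Fcgr3 and Lyz2 of the macrophage list rose there too, by 0.81 to 1.13 (limma, adjusted p of 0.0493 or less). They were 3 of 10 and 2 of 6 measured genes of these lists, beside 3.65% of all genes past the threshold in either direction. In the same comparison 9 of 10 endothelial and 5 of 6 macrophage genes had a difference above 0, with medians of 0.32 and 0.48. The lowest differences were -0.33 (endothelial) and -0.72 (macrophage). The part of these tissues, and of the title style, in the muscle values was not tested.

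**Figure D5:**
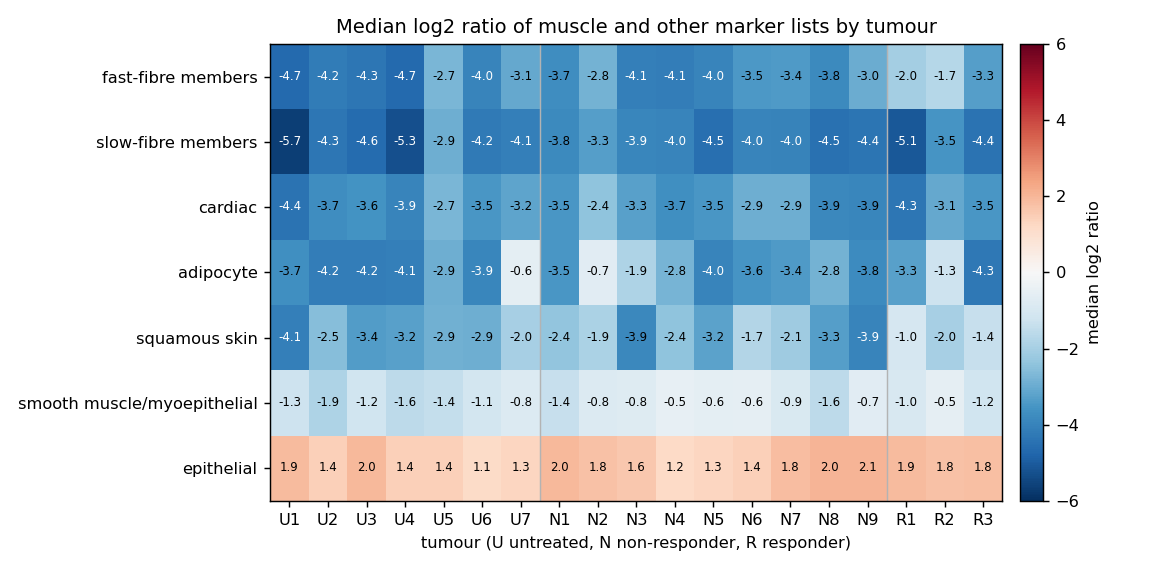
Median log2 ratio of 2 muscle lists and 5 marker lists of other tissues (rows) in 19 tumours (columns), with the value in each cell. R2 is high for fast-fibre and adipocyte genes, R1 for fast-fibre and squamous genes, and epithelial genes are above 0 in every tumour.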

How the data were processed

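RNA of 19 mouse mammary tumours, 1 array each, was extracted with a column kit and labelled with Cy5, against a whole mouse reference RNA in Cy3, per the labels, with no dye swap. The authors deposited 1 value per spot and array, taken as a log2 ratio from its range. Log base, direction, background correction, normalization and scanner were not given in the sources used here. Array medians lay between -0.081 and 0.009. Exact zeros, 738 to 4115 of 45220 spots per array, were taken as missing. By the platform annotation, 33653 spots have 1 gene, 56 have several and 11511 have none. Spots of 1 gene measured on at least 70% of arrays in a fit were averaged per gene.

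The test was two-sided, by lmFit and eBayes of limma 3.58.1 under R 4.3.3, adjusted by Benjamini-Hochberg over all genes, with a threshold of 0.05. A fit of 3 groups gave responders and non-responders against untreated tumours and each other, a fit of 2 groups gave treated against untreated, and a fit of the 12 treated tumours gave week 3 against week 2 with response as a term. The script was tested on simulated data. Replicates were numbered in accession order, which pairs nothing. The labels do not say how tumours were sampled, so p-values measure the spread between these pieces. Members, gene lists, tests and alternatives were chosen with earlier results of these data known. By the rule for naming genes, each member is named with its role. Values over the tumours are given for the 6 paralogue pairs, Ckm, Mb, Acta1, Atp2a1, Ttn, Ryr1, Des, and the member with the largest difference in each comparison; those of Pvalb were added after its values were seen. From other lists, genes past the threshold, and up to 2 with the largest treated minus untreated difference, could be named. Myod1 is named as the lowest of its list.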

Additional observations from a re-analysis of the deposited data

Results flagged for a closer look

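For 22 members and 3 list medians, both groups of 4 to 10 tumours were searched for a highest or lowest tumour that stands far from the rest by Dixon's criterion. Of 50 groups of values 5 did so, where chance gives about 1 in 20 for a single group. The 50 share the same tumours, and the medians are taken over members, so they are not independent and this rate does not gauge their count. U1 was the lowest untreated tumour for Actn2, at -8.72 with the next at -5.56, and for Ckm, at -7.57 with the next at -4.91. N2 was the highest non-responder for Actn3, at -2.83 with the next at -3.96, and for Ckm, at -3.22 with the next at -4.04. N8 was the lowest non-responder for Tnnt1, at -5.11 with the next at -4.73.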

How the results depend on the processing

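In all, 33 alternatives were run, 19 of them leaving out 1 tumour each, and 3319 of 3343 results of named members stayed on the same side of the threshold. With 0 members past it in the main fits, a result could only change by coming to pass, so this total does not measure stability. The results that changed were of Myh4, Mybpc2, Actn3 and Pvalb in responders against untreated tumours, and of Tpm2 without U1. Responders against untreated tumours gave 0 members past the threshold, but 6 with only spots measured on every array (366 of 14562 genes). There were 5 with array weights (535 of 18498 genes) and 1 with the spot of fewest missing values (86 of 18495 genes). Quantile normalization gave 2, Actn3 and Eno3 (14 of 18498 genes). Leaving out the tumours that share an animal number also gave 2, Ankrd23 and Mybpc2 (5 of 18195 genes). Over the fits without 1 tumour this count ranged from 0 to 5, and the median from 0.69 without R2 to 1.39 without R3. The cause was not tested. Non-responders against untreated tumours gave a median of 1.36 within hyphen titles and -0.13 within the other titles. Treated against untreated tumours gave 1.44 and the same -0.13, because the other titles hold no responder. With array weights these medians were 0.05 and 0.22, and with quantile normalization 0.09 and 0.28. Without 1 tumour they ranged from 0.12 to 0.58 and from 0.27 to 0.67, and the count from 0 to 1. That member was Tpm2, without U1, where 609 of 18504 and 1183 of 18559 genes passed. Responders against non-responders kept a positive median, 0.36 to 1.12, and 0 members in every alternative. The week median ranged from -0.36 to 0.02. Testing each spot as its own feature, chosen after seeing the data, gave 0 spots of members past the threshold in all 5 comparisons. No paired analysis was possible because the labels give no replicate numbers and only N1 and R3 share an animal number, and the fit without both is given above. Ratios far below 0 may be bounds.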
